A study of Mus musculus with 16 samples.

Results

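Ccr2, Ly6c2, Cx3cr1, Lyz2, Cd68, Cybb, Itgam, Gpnmb, Trem2 and Spp1 are genes that blood monocytes and the macrophages they give rise to in injured liver transcribe. They were taken by gene symbol, as 10 of the 57010 genes in a table of liver mRNA levels from 16 male wild-type C57BL/6J mice, with 4 mice in each of 4 groups. The mice are described as 8 to 12 weeks old. The study's treatment scheme gives an age of 8 weeks at the start of the diet, 3 months before sampling. The control mice received neither agent. The Cd-treated group received CdCl2 by daily intraperitoneal injection at 1.25 mg/kg for 7 days. The Se group received selenomethionine (SeMet) in the diet at 2 ppm for 3 months. The Cd+Se group received that diet together with the same CdCl2 injections over the final 7 days. Each library is poly(A)-selected RNA of whole liver, and its number was taken as that of a separate mouse. Levels are TPM, a unit of transcript abundance that corrects for gene length and library size. The comparisons address whether Cd exposure altered the mRNA of these genes in liver, and whether Se supplementation altered it in Cd-exposed mice.

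Classical monocytes leave the bone marrow through the chemokine receptor Ccr2, circulate with the surface protein Ly6c2, and enter a damaged liver in response to the ligand Ccl2. There they join the Kupffer cells, the resident macrophages of the liver sinusoids, and can take on the Cx3cr1+ state of patrolling cells or the Trem2+, Gpnmb+ and Spp1+ state of lipid-associated macrophages, which handle lipid from dead cells. Lyz2, Cd68, Cybb and Itgam are not particular to incoming cells, since Kupffer cells or neutrophils also transcribe them, and Spp1 is transcribed by bile duct cells as well. In whole-liver RNA, fewer cells of a type and less RNA per cell cannot be told apart.

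PU.1 and RUNX1 are transcription factors of myeloid cells, and whether they act upstream of these genes was not tested. The 250 bases before the RefSeq start are printed 5′ to 3′ for 4 members, from build GRCm38.p6, with each PU.1 core (GAGGAA, or TTCCTC on the other strand) in capitals. Itgam and Ly6c2 were chosen because the windows shown hold 2 such matches each. Cx3cr1 and Cybb hold none, and their levels in the Cd-treated group lay on opposite sides of the control mice.
Itgam, chr7:128062390-128062639, plus strand: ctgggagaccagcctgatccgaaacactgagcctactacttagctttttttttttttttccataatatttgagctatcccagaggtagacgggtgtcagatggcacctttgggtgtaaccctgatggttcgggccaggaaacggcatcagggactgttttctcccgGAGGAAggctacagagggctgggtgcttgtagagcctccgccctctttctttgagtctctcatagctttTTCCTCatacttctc
Ly6c2, chr15:75111938-75112187, minus strand: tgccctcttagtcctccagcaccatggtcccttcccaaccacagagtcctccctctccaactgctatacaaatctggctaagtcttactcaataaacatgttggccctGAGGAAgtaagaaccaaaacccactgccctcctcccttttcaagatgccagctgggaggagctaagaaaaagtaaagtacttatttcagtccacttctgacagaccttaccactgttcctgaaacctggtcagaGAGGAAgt
Cx3cr1, chr9:120068297-120068546, minus strand: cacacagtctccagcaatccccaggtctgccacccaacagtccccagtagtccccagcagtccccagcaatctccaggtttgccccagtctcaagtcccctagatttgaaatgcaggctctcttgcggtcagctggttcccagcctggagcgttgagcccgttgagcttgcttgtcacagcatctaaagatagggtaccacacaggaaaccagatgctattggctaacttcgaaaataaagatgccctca
Cybb, chrX:9469325-9469574, minus strand: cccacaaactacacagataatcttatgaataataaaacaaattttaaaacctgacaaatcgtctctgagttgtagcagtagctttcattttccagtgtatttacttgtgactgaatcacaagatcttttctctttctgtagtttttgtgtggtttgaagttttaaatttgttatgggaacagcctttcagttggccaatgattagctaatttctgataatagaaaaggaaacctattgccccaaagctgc
By GENCODE M21 the genes lie on GRCm38 at chr9:124101950-124113557 (Ccr2, plus strand), chr9:119901616-120069879 (Cx3cr1, minus), chr15:75108158-75111970 (Ly6c2, minus), chr7:128062640-128118491 (Itgam, plus), chr10:117277331-117282321 (Lyz2, minus), chrX:9435252-9487771 (Cybb, minus), chr11:69664213-69666153 (Cd68, minus), chr17:48346401-48354147 (Trem2, plus), chr6:49036546-49070929 (Gpnmb, plus) and chr5:104435118-104441050 (Spp1, plus). A RefSeq promoter window was found for 10 of 10 members. Ly6c2 has a second window, overlapping the one shown and with 1 PU.1 core, and Spp1 has a second window with none. A gene was counted for a motif if any of its windows held it. The PU.1 core occurred in the windows of 5 members (Ly6c2, Itgam, Cd68, Trem2 and Spp1), and in those of 25.9% of the 27025 genes with a window. The longer form GAGGAAGT or its complement ACTTCCTC, which contains the core, occurred in Ly6c2 and Spp1 and in 2.79% of genes. The RUNX motif TGTGGT or its complement ACCACA occurred in 6 members (Cx3cr1, Ly6c2, Lyz2, Cybb, Gpnmb and Spp1) and in 15.9% of genes. The ETS core GGAAGT or its complement ACTTCC, which overlaps the longer PU.1 form, occurred in 3 members (Ly6c2, Lyz2 and Spp1) and in 22.2% of genes. The E-box CACGTG, its flanked form TCACGTGA, the variant CACATG or its complement CATGTG and the palindromic CEBP motif occurred in none of the 10 members, against 6.86%, 0.907%, 13.8% and 0.0074% of genes. All 8 motifs were searched on both strands, and a match describes only the letters in the window.

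The libraries were liver by their markers: the 6 hepatocyte genes of the tissue check, among them Alb and Hnf4a, summed to between 42298 and 112970 TPM in each mouse. The metallothionein gene Mt1, which Cd induces, ranged from 50.9 to 221 TPM in control mice and from 64.3 to 431 TPM in Se mice, and from 3178 to 4899 TPM in the Cd-treated and from 3621 to 6070 TPM in the Cd+Se mice. Every Cd-injected mouse was thus above every mouse without Cd, and Mt1 does not check the Se diet. The median of log2(TPM + 1) over tested genes was lowest in Cd mouse 5, at 2.68, against 2.90 to 3.36 in the other libraries. Relative to control, the median difference over all tested genes was -0.17 on this scale in the Cd-treated group, and it became 0.05 when each library was centred on its own median and -0.01 after quantile normalisation. In the Cd+Se group relative to the Cd-treated group this median was 0.17. Differences of the members are therefore read beside these medians.

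The 10 mRNAs differed widely in level. Lyz2 had the highest mean over the 16 libraries, 56.2 TPM, followed by Spp1 with 36.3 TPM, Cd68 with 6.04 TPM and Cybb with 2.70 TPM. Trem2, Ccr2 and Ly6c2 had means of 1.46, 1.35 and 1.14 TPM and lay close together, with overlapping ranges. Cx3cr1, Itgam and Gpnmb had means of 0.459, 0.455 and 0.374 TPM, and their ranges overlapped too. A total of 7 members thus passed the filter of a mean of at least 1 TPM and entered the limma fit of 11766 genes, while Cx3cr1, Itgam and Gpnmb did not and were compared by an exact permutation test and in a limma fit without the filter. Ccr2 and Ly6c2 passed it only through the Cd-treated and Cd+Se mice, since their control and Se means were under 1 TPM, and the control mean of Trem2 was under 1 TPM as well. Counts over the members that passed are given as a description only.

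**Figure D1:**
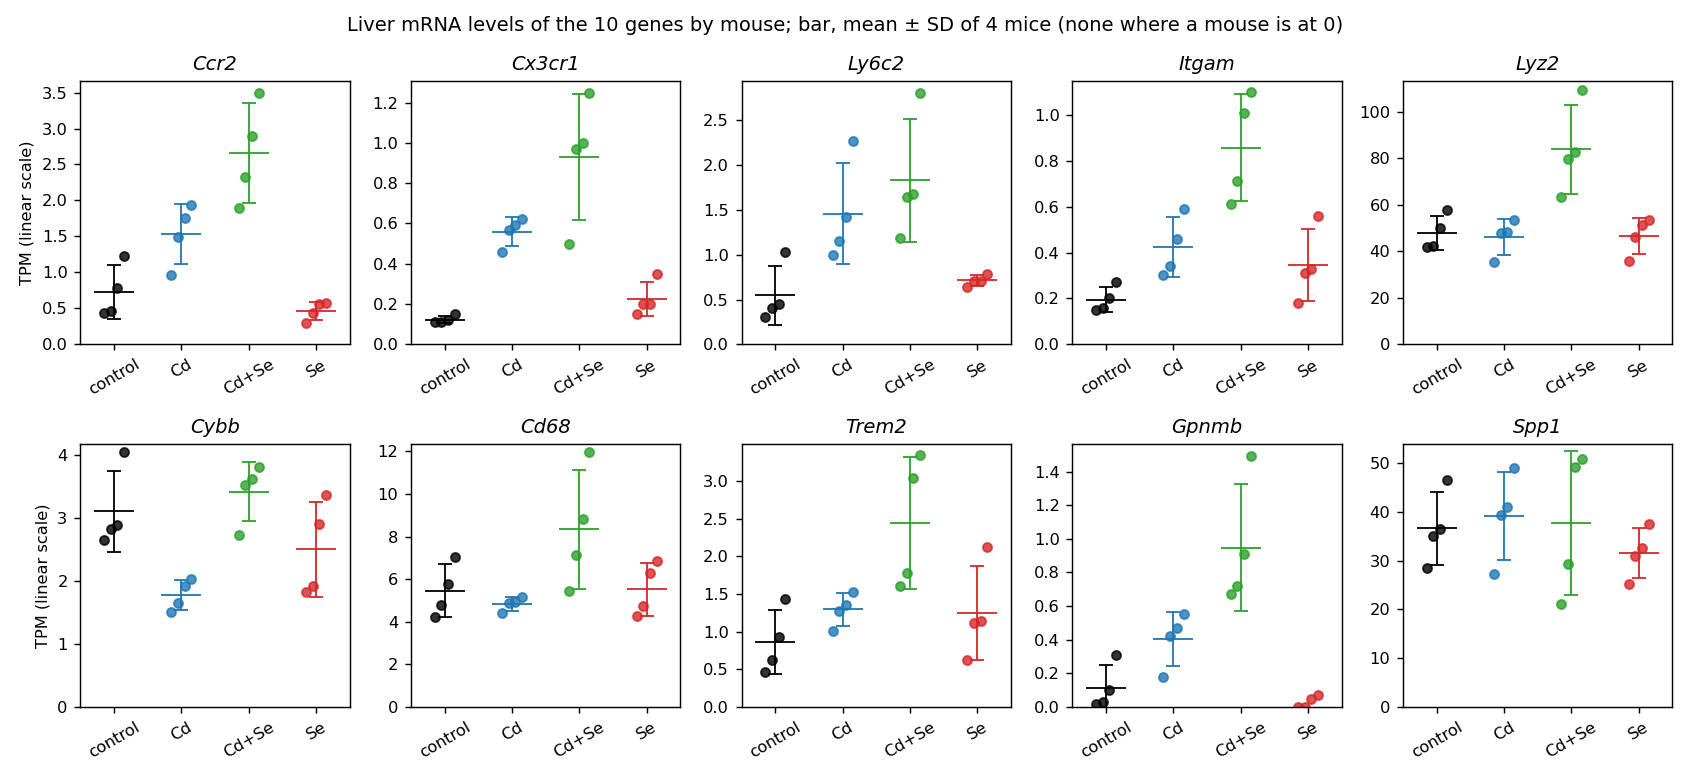
Level of each of the 10 mRNAs in TPM on a linear axis from 0, for control, Cd, Cd+Se and Se mice. Points are single mice, and the bar with whiskers is the mean ± SD of 4 mice, left out for Gpnmb in Se mice, where 2 mice were listed at 0. The 4 Cd+Se mice lie above all 4 Cd mice for Itgam, Lyz2, Cybb, Cd68, Trem2 and Gpnmb, whereas Spp1 overlaps throughout.

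Ccr2, the chemokine receptor that draws classical monocytes to sites of Ccl2 release, had a higher mean in the Cd-treated than in the control group, and its mean was highest in the Cd+Se group. Its levels were 1.23, 0.78, 0.44 and 0.46 TPM in control mice 27, 28, 29 and 30, and 1.76, 1.93, 0.97 and 1.49 TPM in Cd mice 1, 2, 5 and 6. They were 3.5, 2.89, 1.90 and 2.33 TPM in Cd+Se mice 13, 14, 15 and 16, and 0.43, 0.57, 0.56 and 0.29 TPM in Se mice 39, 40, 41 and 44. Cd mice 1, 2 and 6 were above every control mouse, Cd mouse 5 lay inside the control range, and the Cd+Se mice were all above the control and Se mice. The mean in the Cd-treated group was 1.54 ± 0.419 TPM (SD, n = 4) against 0.728 ± 0.369 TPM in control, a ratio of 2.11, and the difference in log2(TPM + 1) was 0.56 ± 0.18 (SE). It passed in the limma fit of genes of at least 1 TPM (adjusted p = 0.0269), a filter that Ccr2 met through the Cd-treated and Cd+Se mice, and not in the exact permutation test over the mice (p = 0.0571). In Cd+Se mice the mean was 2.66 ± 0.694 TPM, 3.65 times that of control (log2 difference 1.09 ± 0.18, limma adjusted p = 0.00936) and 5.74 times that of Se mice (1.31, limma adjusted p = 0.00181). With only the 2 groups fitted, Cd+Se against control did not pass (adjusted p = 0.0677). The step from Cd to Cd+Se, 0.52 ± 0.18, did not pass the threshold (limma adjusted p = 0.0576), and 3 of 4 Cd+Se mice were above all Cd mice. The difference between Cd and control was lost when control mouse 29 or 30 or Cd mouse 1 or 2 was left out (adjusted p from 0.0588 to 0.0842), and in the fit without the filter (adjusted p = 0.0611).

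Ly6c2, the surface antigen used to sort classical monocytes, also had a higher mean in the Cd-treated than in the control group. Its levels were 0.45, 1.03, 0.30 and 0.41 TPM in control, 1, 2.27, 1.15 and 1.42 TPM in Cd, 1.68, 1.64, 1.19 and 2.81 TPM in Cd+Se and 0.79, 0.71, 0.71 and 0.64 TPM in Se mice, in the order of mouse numbers given for Ccr2. Control mouse 28 was the high control and Cd mouse 1 fell just below it, so that the groups overlapped by that pair alone. The ratio of the Cd to the control mean was 2.67, and the log2 difference was 0.66 ± 0.19 (SE). It passed in limma with the filter, which Ly6c2 likewise met through the Cd-treated and Cd+Se mice (adjusted p = 0.0168), and without it (adjusted p = 0.0398), but not in the exact permutation test (p = 0.0571). The call was lost without control mouse 29 (adjusted p = 0.0548) or without Cd mouse 2 (adjusted p = 0.0552). Unlike for Ccr2, the Cd+Se mice overlapped the Cd mice broadly, with a log2 difference of 0.20 ± 0.19 (limma adjusted p = 0.499). Of the 75-base words in Ly6c2 transcripts, 9.46% also occur in Ly6c1, a near copy expressed by endothelium. Ly6c1 lay between 0.28 and 0.78 TPM in control and between 0.73 and 1.14 TPM in Cd mice, and at 0.10 to 0.57 TPM its Cd+Se mice were, unlike those of Ly6c2, all below the Cd mice.

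Cx3cr1, the fractalkine receptor of patrolling monocytes and of some liver macrophages, was low in every library. It stood at 0.11, 0.11, 0.12 and 0.15 TPM in control, 0.62, 0.59, 0.46 and 0.57 TPM in Cd, 0.97, 1, 0.50 and 1.25 TPM in Cd+Se and 0.20, 0.35, 0.15 and 0.20 TPM in Se mice. The lowest Cd mouse was above the highest control mouse, and Cd+Se mouse 15 was the only one of its group that lay among the Cd mice. The Cd mean of 0.56 ± 0.0698 TPM was 4.57 times the control mean of 0.123 ± 0.0189 TPM (two-sided exact permutation test, p = 0.0286, which is the smallest value 70 arrangements of 4 mice against 4 can give). In the limma fit without the filter, over 27943 genes, the Cd to control difference was 0.47 ± 0.0982 (adjusted p = 0.00749), that of Cd+Se to control 0.77 (adjusted p = 0.00337) and that of Cd+Se to Se 0.64 (adjusted p = 0.0109), whereas that of Cd+Se to Cd was 0.29 (adjusted p = 0.113). The pseudocount of 1 makes these differences small for a gene of this level. In the GENCODE M21 annotation the span of Cx3cr1 on chromosome 9 overlaps 3 genes on its strand and 6 on the other, and how reads there were assigned is not given in the sources used here.

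Itgam, the alpha chain of the adhesion receptor Mac-1 of monocytes and neutrophils, was at 0.20, 0.27, 0.16 and 0.15 TPM in control, 0.46, 0.59, 0.30 and 0.34 TPM in Cd, 1.01, 0.61, 0.71 and 1.10 TPM in Cd+Se and 0.31, 0.56, 0.33 and 0.18 TPM in Se mice. Control, Cd and Cd+Se mice fell into 3 ranges that did not overlap, with the Se mice spread over those of control and Cd. The mean was 2.17 times higher in Cd than in control and 2.03 times higher in Cd+Se than in Cd (exact permutation p = 0.0286 for each). In the limma fit without the filter the corresponding differences, 0.25 ± 0.102 and 0.38 ± 0.102, did not pass (adjusted p = 0.153 and 0.0521), while that of Cd+Se to control did (0.63, adjusted p = 0.0190). When each library was centred on its median, the Cd+Se and Cd mice were no longer separated (exact permutation p = 0.200). Itgam carries a doubt of identity: 65.2% of its 75-base words also occur in Gm49368, an overlapping gene on the same strand, which was listed at 0.02 to 0.16 TPM.

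Among the 10 members, Cx3cr1 and Itgam were thus higher in every Cd mouse than in every control mouse, and Cybb was lower. Of genes with a mean of 0.3 to 1 TPM, 5.1% were higher without overlap in this comparison. Of the 11766 genes of at least 1 TPM, 6.44% were higher and 27.8% lower without overlap. In limma, 3 of the 7 members tested passed in Cd against control (30.8% of all genes tested did), with Ccr2 and Ly6c2 higher (5.82% of all genes) and Cybb lower (24.9%). Without Cd mouse 5 the same 3 genes passed (adjusted p = 0.0164 for Ccr2, 0.0249 for Ly6c2 and 0.0423 for Cybb). The median difference of the 7 members was 0.09 against -0.17 over all genes. Without the filter, 3 of 10 members passed, Cx3cr1, Ly6c2 and Cybb, where 10.9% of 27943 genes did.

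**Figure D2:**
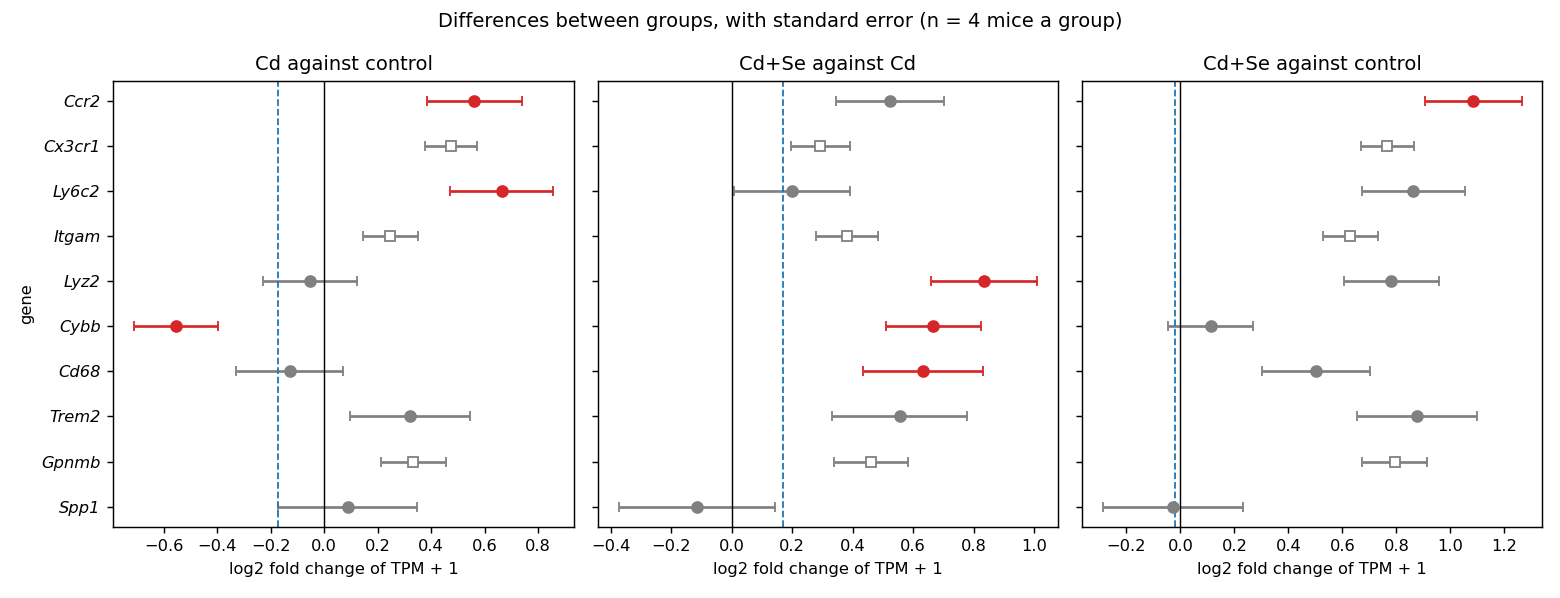
Difference in log2(TPM + 1) between groups with its standard error, in 3 panels (Cd and control, Cd+Se and Cd, Cd+Se and control). All points and standard errors are from the limma fit without the filter. Circles are the 7 genes of at least 1 TPM, red where the adjusted p is under 0.05 in the fit with the filter. Open squares are Cx3cr1, Itgam and Gpnmb, with no call drawn. The dashed line is the median of all genes tested in the fit with the filter. Under Cd the points run from -0.55 for Cybb to 0.66 for Ly6c2, and against Cd 9 of the 10 points for Cd+Se lie above 0, with Spp1 the exception.

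Cybb, the catalytic subunit of the phagocyte NADPH oxidase, fell in the Cd-treated group and was higher again in the Cd+Se group. Its levels were 2.83, 4.05, 2.65 and 2.88 TPM in control, 1.92, 1.65, 1.51 and 2.03 TPM in Cd, 3.81, 3.61, 2.73 and 3.52 TPM in Cd+Se and 1.82, 3.37, 2.90 and 1.92 TPM in Se mice. Every Cd mouse was below every control and every Cd+Se mouse, control and Cd+Se mice overlapped, and the Se mice split into a pair near the Cd range and a pair near control. The mean fell from 3.10 ± 0.639 TPM in control to 1.78 ± 0.239 TPM in Cd, a log2 difference of -0.55 ± 0.16 (SE, limma adjusted p = 0.0146), and stood at 3.42 ± 0.474 TPM in Cd+Se, 0.67 ± 0.16 above Cd (adjusted p = 0.0147). Cd+Se and control differed by 0.11 (adjusted p = 0.854). Centred on the library median, the fall under Cd was -0.33 and did not pass (adjusted p = 0.0872), and without control mouse 28 it was -0.45 (adjusted p = 0.0555). The rise from Cd to Cd+Se passed with any single mouse left out (adjusted p from 0.00961 to 0.0450) but not when only those 2 groups were fitted (adjusted p = 0.0562).

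Cyba, the membrane partner of Cybb in the same oxidase, was at 9.30 ± 1.78 TPM in control, 7.68 ± 1.48 TPM in Cd and 12.2 ± 2.39 TPM in Cd+Se mice. It did not pass under Cd (-0.25 ± 0.20, limma adjusted p = 0.373), and it came near the threshold from Cd to Cd+Se (0.60 ± 0.20, adjusted p = 0.0536).

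Lyz2, which encodes lysozyme of macrophages and granulocytes, was the most abundant member. Its levels were 41.69, 57.63, 42.31 and 50.05 TPM in control, 48.15, 47.87, 35.50 and 53.47 TPM in Cd, and 46.17, 51.29, 53.46 and 36.05 TPM in Se mice. In Cd+Se mice it stood at 109.63, 79.93, 63.46 and 82.59 TPM, each above every mouse of the other groups. The control and Cd means, 47.9 ± 7.51 and 46.2 ± 7.61 TPM, differed by -0.05 ± 0.18 on the log2 scale (limma adjusted p = 0.843). The Cd+Se mean of 83.9 ± 19.1 TPM was 1.81 times that of Cd (0.83 ± 0.18, adjusted p = 0.00972) and 1.80 times that of Se (0.82, adjusted p = 0.0429), whereas Cd+Se against control, 0.78 ± 0.18, did not pass (adjusted p = 0.0655). The rise over Cd passed without any single mouse (adjusted p from 0.00927 to 0.0314) and not with only the 2 groups fitted (adjusted p = 0.0615). The rise over Se was lost in 13 of the 16 fits that left out a mouse. Its near copy Lyz1, with which 5.96% of its 75-base words are shared, was at or below 0.42 TPM in every mouse.

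Cd68, a glycoprotein of macrophage lysosomes, was at 4.22, 7.06, 4.81 and 5.77 TPM in control, 4.92, 4.88, 4.39 and 5.16 TPM in Cd, 11.97, 8.84, 5.44 and 7.12 TPM in Cd+Se and 4.25, 6.28, 6.86 and 4.72 TPM in Se mice. The Cd mice lay inside the control range, and the Cd+Se mice were above all Cd mice but, through mouse 15, not above all control mice. The Cd+Se mean of 8.34 ± 2.79 TPM was 1.72 times the Cd mean of 4.84 ± 0.323 TPM (log2 difference 0.63 ± 0.19, limma adjusted p = 0.0384). This call was the least stable of the 3 in that comparison: it was lost in 7 of the 16 fits that left out a mouse (without Cd mouse 1, 2, 5 or 6 or Cd+Se mouse 13, 14 or 16, adjusted p from 0.0522 to 0.102), under both rescalings of the libraries (0.44 in each, adjusted p = 0.143 and 0.138) and without the filter (adjusted p = 0.0915). Under Cd the difference was -0.13 ± 0.19 (adjusted p = 0.646), and its sign, like that of Lyz2, was positive under both rescalings.

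**Figure D3:**
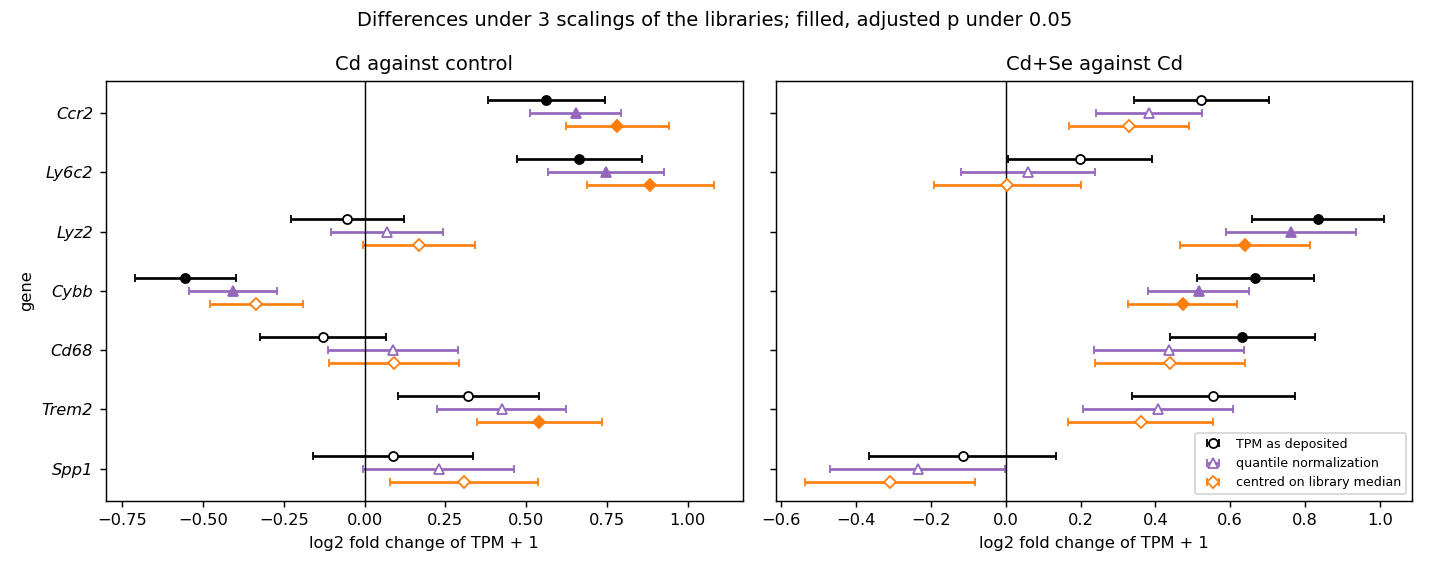
Difference in log2(TPM + 1) with its standard error for the 7 members of at least 1 TPM, with TPM as deposited (circles), after quantile normalisation (triangles) and with each library centred on its median (diamonds); filled symbols have an adjusted p under 0.05. Under Cd, centring moves Ccr2 from 0.56 to 0.78 and Cybb from -0.55 to -0.33; from Cd to Cd+Se it moves Cd68 from 0.63 to 0.44.

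Trem2, the lipid-sensing receptor of lipid-associated macrophages, was at 0.93, 1.43, 0.63 and 0.47 TPM in control, 1.28, 1.53, 1.01 and 1.36 TPM in Cd, 1.78, 1.61, 3.04 and 3.35 TPM in Cd+Se and 0.63, 2.12, 1.11 and 1.14 TPM in Se mice. Cd+Se mice 15 and 16 were the high ones, and that group lay above the Cd mice without overlap while Se mouse 40 reached into it. The mean was 2.45 ± 0.878 TPM in Cd+Se and 1.30 ± 0.217 TPM in Cd, a log2 difference of 0.56 ± 0.22 that did not pass in limma (adjusted p = 0.0886; exact permutation p = 0.0286). Under Cd alone the difference from control was 0.32 ± 0.22 (adjusted p = 0.277), or 0.54 with libraries centred (adjusted p = 0.0427).

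Gpnmb, a lysosomal glycoprotein of lipid-loaded macrophages, was the member of lowest level. It was listed at 0.03, 0.10, 0.02 and 0.31 TPM in control, 0.47, 0.42, 0.18 and 0.55 TPM in Cd, 1.49, 0.91, 0.72 and 0.67 TPM in Cd+Se and 0.07, 0.05, 0.00 and 0.00 TPM in Se mice. The Cd+Se mice were above the mice of all other groups, and Cd mouse 5 overlapped control mouse 30. The Cd+Se mean was 2.34 times the Cd mean and 8.24 times the control mean (exact permutation p = 0.0286 for each). The separation of Cd+Se from Cd was lost after quantile normalisation (0.40, exact permutation p = 0.0571) and with libraries centred (0.27, exact permutation p = 0.114). In the limma fit without the filter, Cd+Se differed from control by 0.79 ± 0.122 (adjusted p = 0.0132) and from Se by 0.90 ± 0.122 (adjusted p = 0.00524), and it was near the threshold against Cd (0.46, adjusted p = 0.0503). Cd against control was 0.33 (adjusted p = 0.103).

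Spp1 encodes osteopontin, a secreted phosphoprotein of macrophages and bile duct cells. Its levels were 46.47, 36.53, 35 and 28.51 TPM in control, 41.12, 49.11, 27.34 and 39.34 TPM in Cd, 50.91, 29.40, 21.10 and 49.30 TPM in Cd+Se and 30.96, 32.53, 25.14 and 37.57 TPM in Se mice. All 4 groups overlapped, and the Cd+Se group held both the highest and the lowest mouse. The Cd mice differed from control by 0.09 ± 0.25 and the Cd+Se mice from the Cd mice by -0.11 ± 0.25 (limma adjusted p = 0.816 and 0.781). Of 7 bile duct markers, Spp1 alone reached a mean of 1 TPM. Krt19 was at 0.628 ± 0.215 TPM in control and 0.50 ± 0.229 TPM in Cd mice. Part of the Spp1 sequence, 8.55% of its 75-base words, also occurs in Gm42793, which was listed at 0 to 0.32 TPM.

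In Cd+Se against Cd, 3 of the 7 members tested passed, Lyz2, Cybb and Cd68, all higher, where 15.9% of all genes tested passed and 13.6% were higher. Without Cd mouse 5, Lyz2 and Cybb passed (adjusted p = 0.0314 and 0.0423) and Cd68 did not (0.102). The median difference of the 7 members was 0.56 against 0.17 over all genes. Of the 10 members, 6 were higher in every Cd+Se mouse than in every Cd mouse, beside 16.1% of genes of at least 1 TPM and 7.22% of genes of 0.3 to 1 TPM. With libraries centred, 2 of the 10 members were apart. Without the filter 2 members passed, Lyz2 and Cybb, where 4.05% of genes did. The comparisons of Cd with control and of Cd+Se with Cd share the 4 Cd mice.

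In Cd+Se against control only Ccr2 passed of the 7 tested, and 0.484% of all genes did. In the fit without the filter 4 of 10 members passed (Ccr2, Cx3cr1, Itgam and Gpnmb), where 0.286% of genes did. All 4 Cd+Se mice were above all 4 control mice for 7 members, Ccr2, Cx3cr1, Ly6c2, Itgam, Lyz2, Trem2 and Gpnmb, which was the case for 3.88% of genes of at least 1 TPM and 4.41% of genes of 0.3 to 1 TPM. In Cd+Se against Se, Ccr2 and Lyz2 passed of 7 tested (0.714% of all genes), and Ccr2, Cx3cr1 and Gpnmb of 10 without the filter (0.293%).

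In Se mice without Cd, limma called none of the 7 members against control, where 0% of all genes passed. Their unadjusted p was under 0.05 for 0 members, and 0 of 10 were called without the filter. Differences ran from -0.24 ± 0.16 for Cybb to 0.26 ± 0.22 for Trem2, and no member was without overlap. The interaction, which asks whether the Cd difference changed with Se, was called for 0 of 7 members and for 1.04% of all genes, although the unadjusted p was under 0.05 for 4 members. Cybb came nearest, at 0.91 ± 0.22 (limma adjusted p = 0.0550), followed by Lyz2 at 0.87 ± 0.25 (adjusted p = 0.0842). For Cybb it passed after quantile normalisation (0.76, adjusted p = 0.0389).

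The signals that draw monocytes to the liver included 1 gene that rose under Cd of 7 tested in a list of 14. Ccl2, the ligand of Ccr2, was at 0.07, 1.14, 0.58 and 0.21 TPM in control and at 4.14, 4.54, 4.53 and 4.44 TPM in Cd mice. It was 3.84 to 4.85 TPM in Cd+Se mice 14 to 16 and 15.5 TPM in mouse 13, which also had the highest Ccr2, Lyz2 and Cd68. The ratio of the Cd to the control mean was 8.83 (log2 difference 1.90 ± 0.32, limma adjusted p = 0.000699). Ccl2 met the filter of this fit only through the Cd-treated and Cd+Se mice, since its control and Se means were 0.50 and 0.585 TPM. From Cd to Cd+Se the adhesion molecules Icam1 and Vcam1 rose, to 12.3 ± 2.68 from 8.07 ± 0.986 TPM (adjusted p = 0.0357) and to 8.01 ± 1.93 from 4.68 ± 0.436 TPM (adjusted p = 0.0416).

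Other genes of classical monocytes did not all follow Ccr2. Of 10, 5 were tested, and Ms4a6c rose under Cd while Fn1, which hepatocytes transcribe at a high level, fell. From 194.6 ± 31.2 TPM in Cd, Fn1 stood higher in Cd+Se mice at 271.3 ± 29.5 TPM (0.49 ± 0.12, limma adjusted p = 0.0181), and it was the 1 gene of the list called in the interaction (adjusted p = 0.0416). Ms4a6c was at 1.57 ± 0.253 TPM in control, 2.72 ± 0.313 TPM in Cd and 4.50 ± 1.43 TPM in Cd+Se mice, and it rose again in the step from Cd to Cd+Se (0.53, adjusted p by limma = 0.0447). Plac8 was at 10.4 ± 2.16, 16.4 ± 2.22 and 24.8 ± 11.6 TPM in those groups, and did not pass under Cd or from Cd to Cd+Se, whereas Cd+Se against control (1.11, adjusted p = 0.0499) and against Se (1.25, adjusted p = 0.0219) passed in limma. Of 7 genes of non-classical monocytes, 4 were tested and Nr4a1 rose under Cd (1.69 ± 0.58, adjusted p = 0.0366), with Cd mice spread from 2.46 to 19.7 TPM. None of that list passed from Cd to Cd+Se.

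Of 12 further lipid-associated macrophage genes, 10 were tested, and under Cd 2 rose and 2 fell. Those that rose were Lgals3, the lectin galectin-3, from 2.61 ± 0.101 to 5.75 ± 1.18 TPM (limma adjusted p = 0.00588), and Lpl, lipoprotein lipase, from 4.55 ± 0.559 to 9.81 ± 2.36 TPM (adjusted p = 0.00154). Lipa, lysosomal acid lipase, and Plin2, a lipid droplet coat protein, fell; hepatocytes transcribe both. From Cd to Cd+Se only Lipa rose, from 44.1 ± 11.3 to 71.5 ± 6.99 TPM (adjusted p = 0.0259). Of the TREM2 pathway, 4 of 6 genes were tested, none passed under Cd, and the adaptor Tyrobp rose from 13.2 ± 1.24 TPM in Cd to 22.7 ± 5.84 TPM in Cd+Se (0.71 ± 0.20, adjusted p = 0.0276). Of the integrin partners of Itgam, 4 of 6 were tested, none passed under Cd, and its beta chain Itgb2 rose from 1.77 ± 0.156 to 4.24 ± 1.58 TPM in Cd+Se (0.87 ± 0.20, adjusted p = 0.0142). Of 5 receptors of Spp1, 4 were tested, and Itgb1 fell under Cd and was higher with Se supplementation (adjusted p = 0.0177 and 0.0151).

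**Figure D4:**
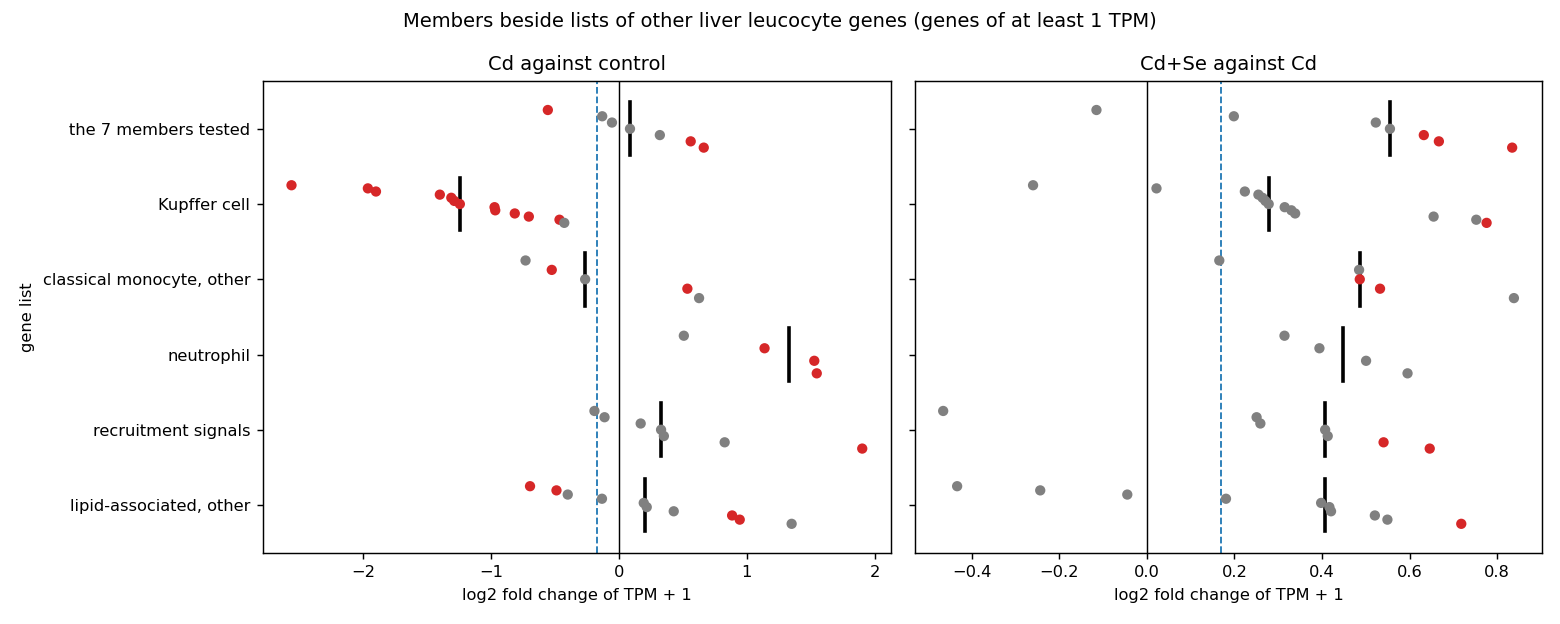
Difference in log2(TPM + 1) of each tested gene (points) in the members and 5 other lists, in a panel for Cd against control and another for Cd+Se against Cd; red points have an adjusted p under 0.05 in limma, vertical bars are list medians and the dashed line is the median of all genes tested. Under Cd the Kupffer cell list has a median of -1.24 and the neutrophil list one of 1.33, with the members between them at 0.09.

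Resident macrophage and neutrophil genes moved in the same comparison, and their part in the members' values was not tested. Of 13 Kupffer cell genes, 12 fell under Cd and none rose. Cd163, a scavenger receptor, was at 4.95 to 6.89 TPM in control and 0.06 to 0.36 TPM in Cd mice, and the summed level of the list was 256 to 308 TPM in control, 124 to 165 TPM in Cd, 134 to 218 TPM in Cd+Se and 192 to 308 TPM in Se mice. From Cd to Cd+Se 1 of the 13, Adgre1 (the macrophage antigen F4/80), rose, and 5 of 13 were lower in Cd+Se than in control. Csf1r, the growth factor receptor that monocytes and macrophages share, was the 1 gene of 7 tested macrophage identity factors that passed under Cd, and it fell from 7.20 ± 1.06 to 3.62 ± 0.655 TPM (-0.83 ± 0.19, limma adjusted p = 0.00499). The level of Ccr2 per unit of Csf1r was 0.0693 to 0.159 in control, 0.342 to 0.576 in Cd, 0.440 to 0.780 in Cd+Se and 0.0618 to 0.137 in Se mice, a ratio chosen after both values were known and not tested.

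Of 12 neutrophil genes, 4 were tested. Retnlg and Csf3r met the filter only through the Cd-treated and Cd+Se mice. Retnlg was at or below 0.57 TPM in every control and Se mouse, and Csf3r had control and Se means of 0.74 and 0.615 TPM. S100a8, S100a9 and Retnlg rose under Cd. Their list summed to 6.83 to 17.1 TPM in control, 35.9 to 43.6 TPM in Cd, 47.2 to 78.3 TPM in Cd+Se and 6.22 to 10.6 TPM in Se mice. Ly6g, a defining surface antigen of neutrophils, was at or below 0.17 TPM in every mouse and listed at 0 in all 4 Cd+Se mice. Other untested genes of the list differed from it. Ltf was at 0 to 0.02 TPM in control and 0.23 to 1.57 TPM in Cd mice, and Ngp at 0 to 0.22 and 0.57 to 1.29 TPM. Of genes of 0.3 to 1 TPM, 5.1% were likewise higher without overlap. Cxcr2, Camp, Mmp8, Elane and Mpo overlapped between these groups. Itgam, Lyz2 and Cybb are transcribed by neutrophils too. Of 6 pan-leucocyte genes none passed under Cd (Ptprc, which encodes CD45, was at 2.99 ± 0.310 and 3.31 ± 0.521 TPM), and Laptm5 alone rose from Cd to Cd+Se. In Cd+Se against Se, Coro1a and Ptprc passed in limma, both higher, where 0.714% of all genes passed. Laptm5 also passed in the interaction, as did 1.04% of all genes. The summed level of the 6 pan-leucocyte genes was 28.4 to 36.9 TPM in control, 31.1 to 44.3 TPM in Cd, 34.6 to 75.6 TPM in Cd+Se and 21.5 to 30.5 TPM in Se mice.

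Over the 16 libraries the members varied together. All 45 pairwise Pearson r of log2(TPM + 1) were above 0, with a median of 0.616 and a range of 0.054 to 0.905, the highest being that of Ccr2 and Gpnmb. Within groups, after each group mean was removed, the median was 0.431 and 42 of 45 were above 0. Over the 16 libraries Itgam had the highest median r with the other members, 0.804, and Spp1 and Cybb the lowest, 0.232 and 0.287. Within groups Lyz2 had the highest, 0.579, and Trem2 the lowest, 0.0998. These are descriptions over libraries that share treatments and total scaling. Ccr2 and Csf3r, the gene most like it, both met the filter only through the Cd-treated and Cd+Se mice. Of 10476 other protein-coding genes, those most alike over the 16 libraries were Csf3r (r = 0.949) and Plac8 (0.933) for Ccr2, Capg (0.850) and Gabbr1 (0.840) for Ly6c2, Pkm (0.925) and Abr (0.919) for Lyz2, Serpinb6a (0.902) and Lgmn (0.897) for Cybb, Ifi204 (0.905) and Tyrobp (0.895) for Cd68, Slc1a5 (0.894) and Sgsm2 (0.817) for Trem2, and Anxa5 (0.902) and Casp12 (0.83) for Spp1.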

How the data were processed

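The authors deposited 1 table of TPM values, estimated per gene and scaled by them to the same total in each library, with 2 decimals. The submitters' processing notes name fastp, HISAT2, StringTie and the human build GRCh38, although the gene identifiers are those of mouse. TPM keep no depth, so depth is unknown and precision rests on 4 mice per group. Groups were taken from the treatment labels. The titles give each library a number with 2 replicate marks, which were taken as runs or read files of 1 library. They do not say that a number is a mouse. Each number was taken as a separate mouse, and otherwise p-values measure only the spread between libraries.

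A fit in limma 3.58.1 (R 4.3.3) of log2(TPM + 1) took in the 11766 genes whose mean over 16 libraries reached 1 TPM, with 1 coefficient per group and an intensity trend, in 6 contrasts, adjusted over all of them by Benjamini-Hochberg at a threshold of 0.05. Single members were also compared by an exact two-sided permutation test. Members and gene lists were chosen with earlier results of these data known. All members could be named, with near copies, 2 most alike genes per member, Mt1 and Mt2. Of each list, the called genes with the 4 largest differences in Cd against control or Cd+Se against Cd could be named. Outside this rule, Alb, Cyba, Krt19, Ptprc, Coro1a and Ly6g were named after their values were seen. So were the other untested genes of classical monocytes and neutrophils and the uncalled stellate cell genes. Gene positions and shared 75-base words came from GENCODE M21, and promoters from RefSeq on GRCm38.p6. Motifs were chosen after values were known. The list of NADPH oxidase partners is not reported here as a whole. The fit was tested on simulated data that held no shift of whole libraries, so that test does not show how such a shift affects the calls. Alternatives were pseudocounts of 0.1, filters of 0 and 5 TPM, quantile normalisation, centring, no trend, only the groups compared, and leaving out each mouse.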

Additional observations from a re-analysis of the deposited data

Results flagged for a closer look

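Among the 40 sets of 4 mice (10 members in 4 groups), Cybb in control mice was the 1 set with a mouse far from the others. Mouse 28 stood at 4.05 TPM against 2.65 to 2.88 TPM in the other 3 control mice, and its gap to the nearest was 0.836 of the range of the group. About 2 such sets of 40 are expected by chance. Without this mouse the fall of Cybb under Cd was -0.45 and did not pass in limma (adjusted p = 0.0555).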

How the results depend on the processing

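Over 57 differences of a member in a comparison, 1172 alternatives were computed: 1032 kept the direction and the side of the threshold, 79 no longer passed, 24 newly passed, and 37, of which 0 passed in either fit, turned sign. These 37 were in 9 differences near 0. With quantile normalisation and with centring (filter or none), Lyz2 in Cd against control became 0.069 and 0.17, Cd68 there 0.087 and 0.090, the interaction of Spp1 -0.020 and -0.098, and that of Ly6c2 -0.11 and -0.15 (-0.13 with a pseudocount of 0.1). Without any 1 mouse, Ly6c2 ran from -0.12 to 0.18 and Spp1 from -0.084 to 0.33 in the interaction, Lyz2 from -0.13 to 0.066 and Spp1 from -0.028 to 0.25 in Cd against control, Lyz2 from -0.11 to 0.078 and Cd68 from -0.083 to 0.13 in Se against control, and Spp1 from -0.29 to 0.12 in Cd+Se against Cd and from -0.20 to 0.21 in Cd+Se against control. The number of members called in Cd against control, 3, was 0 with a filter of 5 TPM and 1 to 3 without any 1 mouse (1 without control mouse 29 or Cd mouse 2). In Cd+Se against Cd, 3 were called, 0 with only the groups compared, and 2 to 4 without a mouse. In Cd+Se against control the count of 1 was 4 with no filter, 0 with a filter of 5 TPM, 3 after quantile normalisation, 4 with centring, 0 with only the groups compared and 1 to 3 without a mouse. In Cd+Se against Se the count of 2 was 0 with a filter of 5 TPM, 1 with only the groups compared and 1 to 2 without a mouse. The interaction, 0, was 1 after quantile normalisation and with centring and 0 to 1 without a mouse (1, Cybb, without Cd+Se mouse 15 or Se mouse 40). No filter with centring, added after the data were seen, gave 5, 1, 5 and 4 members in the first 4 of these comparisons. Members without overlap numbered 3 in Cd against control (5 with centring, 3 to 5 without a mouse) and 6 in Cd+Se against Cd (2 with centring, 6 to 8 without a mouse). The filter of 5 TPM removes Ccr2, Ly6c2, Cybb and Trem2; otherwise the cause was not tested. Of calls over all genes in Cd against control, 81.1% were lower as deposited, 57.1% after quantile normalisation and 44.4% with centring; in Cd+Se against Cd those shares were 14.7%, 43.7% and 57.6%, and only 66 genes were called there with only the groups compared, against 1876. Genes under 1 TPM rest on few reads, and depth is unknown.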

Other observations

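Lymphoid and other liver cell genes gave few calls. None of 10 T and NK cell genes reached a mean of 1 TPM, and their summed level was 3.41 to 6.93 TPM in control and 4.97 to 6.58 TPM in Cd mice. Of 6 B and plasma cell genes 2 were tested and 0 called in Cd against control or Cd+Se against Cd by limma. Of 7 dendritic cell genes 2 were tested, and Clec9a, a receptor for dead cells on cross-presenting dendritic cells, rose under Cd (0.64 ± 0.22, limma adjusted p = 0.0355). Of 8 sinusoidal endothelial genes 7 were tested: the scavenger receptor Stab2 fell under Cd (-0.62 ± 0.19, adjusted p = 0.0205), and the hyaluronan receptor Lyve1 rose from Cd to Cd+Se (1.09 ± 0.25, adjusted p = 0.0138). Of 8 stellate cell and fibroblast genes 5 were tested, and Reln fell under Cd (-0.93 ± 0.25, adjusted p = 0.0104). The collagen genes Col3a1 and Col1a2 were not called under Cd but lay the other way. Col3a1 was at 2.03 to 2.72 TPM in control and 3.20 to 7.85 TPM in Cd mice, and Col1a2 at 0.85 to 1.44 and 1.73 to 2.48 TPM. Of genes of at least 1 TPM, 6.44% were likewise higher without overlap. Dcn and Lrat overlapped between these groups. Col3a1 passed in Cd+Se against Se in limma, where it was higher. Of 5 proliferation genes 2 were tested and 0 called in either comparison. Of the 6 hepatocyte genes, Hnf4a and Serpina1c fell under Cd, and Hnf4a rose from Cd to Cd+Se (0.58 ± 0.16, adjusted p = 0.0239). Of 5 near copies or relatives of members 2 were tested and 0 called in either comparison.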
